A study of Rattus norvegicus with 12 samples.

Results

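Astrocyte genes are 35 genes listed as markers of astrocytes, the star-shaped glial cells of the brain, and led by Gfap and Aqp4. Genes of the list were kept where their mean was at least 0.5 TPM (a transcript level per length and relative to the library's total). All 35 were found in the deposited files and all 35 passed, out of 24540 genes that passed the same minimum and 41596 in all. The rule used the list and the mean level, and no difference between groups.

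The study compared the periaqueductal grey, a midbrain region, of male Sprague Dawley rats sired by morphine-exposed males (morphine-sired, 6 libraries) with that of males sired by saline-treated males (saline-sired, 6 libraries). The series title calls the fathers' exposure chronic, and the labels give no dose or time for it and no treatment, age or litter of the sons. PolyA RNA was sequenced from dissected, frozen tissue in 12 libraries. Each library has its own number in the labels, which do not state that these are separate animals, so p-values measure the spread between these samples, which may be technical. The numbers form 6 consecutive pairs, 4 within a group and 2 across groups, where the fathers' treatments differ. The labels do not say whether a pair within a group marks a shared litter. If so, fewer than 6 independent samples would stand behind a group. The depth was 4.39 to 6.03 gigabases of aligned sequence per library, and depth limits the precision of the low genes most. In bulk tissue, fewer astrocytes and less RNA per astrocyte cannot be told apart.

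Astrocytes take up potassium and neurotransmitters around synapses, move water and ions at the blood vessels, pass metabolites between each other through gap junctions and supply lipids to neurons. In injury and inflammation they enlarge and make more of the intermediate filaments GFAP and vimentin, a state called reactive. The periaqueductal grey is known for its part in pain control and in opioid analgesia, and it surrounds the cerebral aqueduct, whose wall is a layer of ciliated ependymal cells that share several genes with astrocytes, Vim and Sox9 among them.

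The promoter windows below are shown because Aqp4 had its main transcripts from 2 start sites and because Gfap, Vim, Hes5 and Id3 were among the members that differed most between libraries. They are taken from RefSeq (build GRCr8, not the build Rnor_6.0 of the files), each from 250 bases before to 50 bases after a gene's start, and the list had 37 such windows for 31 of its 35 genes. Capitals mark matches, on either strand, to the TATA box motif TATAAA, to the RBPJ motif GTGGGAA, which the Notch pathway's DNA-binding factor recognises, and to the STAT motif TTCNNNGAA, with N for any base.
Aqp4, upstream start, chr18:6798793-6799092, minus strand: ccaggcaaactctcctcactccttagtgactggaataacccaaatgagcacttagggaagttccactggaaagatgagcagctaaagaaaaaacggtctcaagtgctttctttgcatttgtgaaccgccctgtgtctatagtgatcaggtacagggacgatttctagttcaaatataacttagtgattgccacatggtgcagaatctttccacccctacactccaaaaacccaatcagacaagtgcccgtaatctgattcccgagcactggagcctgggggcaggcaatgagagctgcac
Aqp4, downstream start, chr18:6797877-6798176, minus strand: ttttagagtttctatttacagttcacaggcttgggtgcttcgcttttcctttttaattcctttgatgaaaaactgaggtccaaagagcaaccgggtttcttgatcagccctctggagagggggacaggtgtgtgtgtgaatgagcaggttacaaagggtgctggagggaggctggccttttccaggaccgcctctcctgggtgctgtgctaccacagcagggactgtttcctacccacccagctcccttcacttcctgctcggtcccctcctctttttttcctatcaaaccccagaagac
Gfap, chr10:88361612-88361911, minus strand: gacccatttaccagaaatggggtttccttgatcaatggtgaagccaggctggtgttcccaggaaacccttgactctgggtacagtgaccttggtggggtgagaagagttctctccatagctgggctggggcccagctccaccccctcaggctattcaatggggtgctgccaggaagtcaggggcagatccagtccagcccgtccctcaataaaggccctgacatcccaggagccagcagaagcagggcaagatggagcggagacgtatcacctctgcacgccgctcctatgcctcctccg
Vim, chr17:81577011-81577310, plus strand: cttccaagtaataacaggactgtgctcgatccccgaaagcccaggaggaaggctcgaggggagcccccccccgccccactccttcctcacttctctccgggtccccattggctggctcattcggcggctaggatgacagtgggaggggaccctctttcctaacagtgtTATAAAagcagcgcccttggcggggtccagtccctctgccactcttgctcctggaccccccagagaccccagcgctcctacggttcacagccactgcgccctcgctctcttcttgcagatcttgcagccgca
Hes5, chr5:170804327-170804626, plus strand: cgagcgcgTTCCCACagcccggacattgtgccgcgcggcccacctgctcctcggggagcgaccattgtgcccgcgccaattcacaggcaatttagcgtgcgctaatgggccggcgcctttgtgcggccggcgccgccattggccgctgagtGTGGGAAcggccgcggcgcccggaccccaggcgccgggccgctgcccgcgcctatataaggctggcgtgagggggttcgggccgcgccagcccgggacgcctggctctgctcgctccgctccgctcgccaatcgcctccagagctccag
Id3, chr5:153656041-153656340, plus strand: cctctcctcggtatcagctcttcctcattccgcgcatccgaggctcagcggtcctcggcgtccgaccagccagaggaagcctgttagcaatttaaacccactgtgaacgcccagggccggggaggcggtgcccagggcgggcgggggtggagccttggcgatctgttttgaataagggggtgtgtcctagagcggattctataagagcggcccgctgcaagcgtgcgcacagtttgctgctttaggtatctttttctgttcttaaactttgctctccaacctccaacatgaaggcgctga
The window of Hes5, a Notch target, held 2 matches to GTGGGAA, and that of Vim held 1 match to TATAAA. Both windows of Aqp4 and the windows of Gfap and Id3 held none of the 3 motifs. Of 33469 promoter windows in the table, 14.2% held TATAAA, 6.29% held GTGGGAA and 8.87% held TTCNNNGAA. Of the 37 windows of astrocyte genes, 6 held TATAAA, 3 held GTGGGAA and 3 held TTCNNNGAA. A match is a description of these letters only.

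Together the astrocyte genes took 2.27% ± 0.161 of all TPM in morphine-sired and 2.13% ± 0.054 in saline-sired rats (SD, n = 6 each). This sum weighs the highest genes most. Apoe alone averaged 6181 of 22660 TPM in morphine-sired and 5466 of 21260 TPM in saline-sired rats. Apoe, which encodes the main lipid carrier of the brain, was highest at a mean of 5823 TPM over the 12 libraries. Cst3, a secreted cysteine protease inhibitor, followed at 4111 TPM, Aldoc, the brain form of the glycolytic enzyme aldolase, at 2116 TPM, and S100b, a calcium-binding protein, at 1808 TPM. Ndrg2, Clu and Glul were also above 1000 TPM, 11 members lay between 100 and 1000 TPM, and 17 lay below 100 TPM. F3, tissue factor, was lowest at 9.045 TPM. In this order of levels, 12 of the 34 neighbouring pairs were apart by more than 1 SD of the library values on the log2 scale. Of the 2 defining markers, Gfap was at 323.4 TPM and Aqp4 at 220.5 TPM, so both were present in every library.

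**Figure D1:**
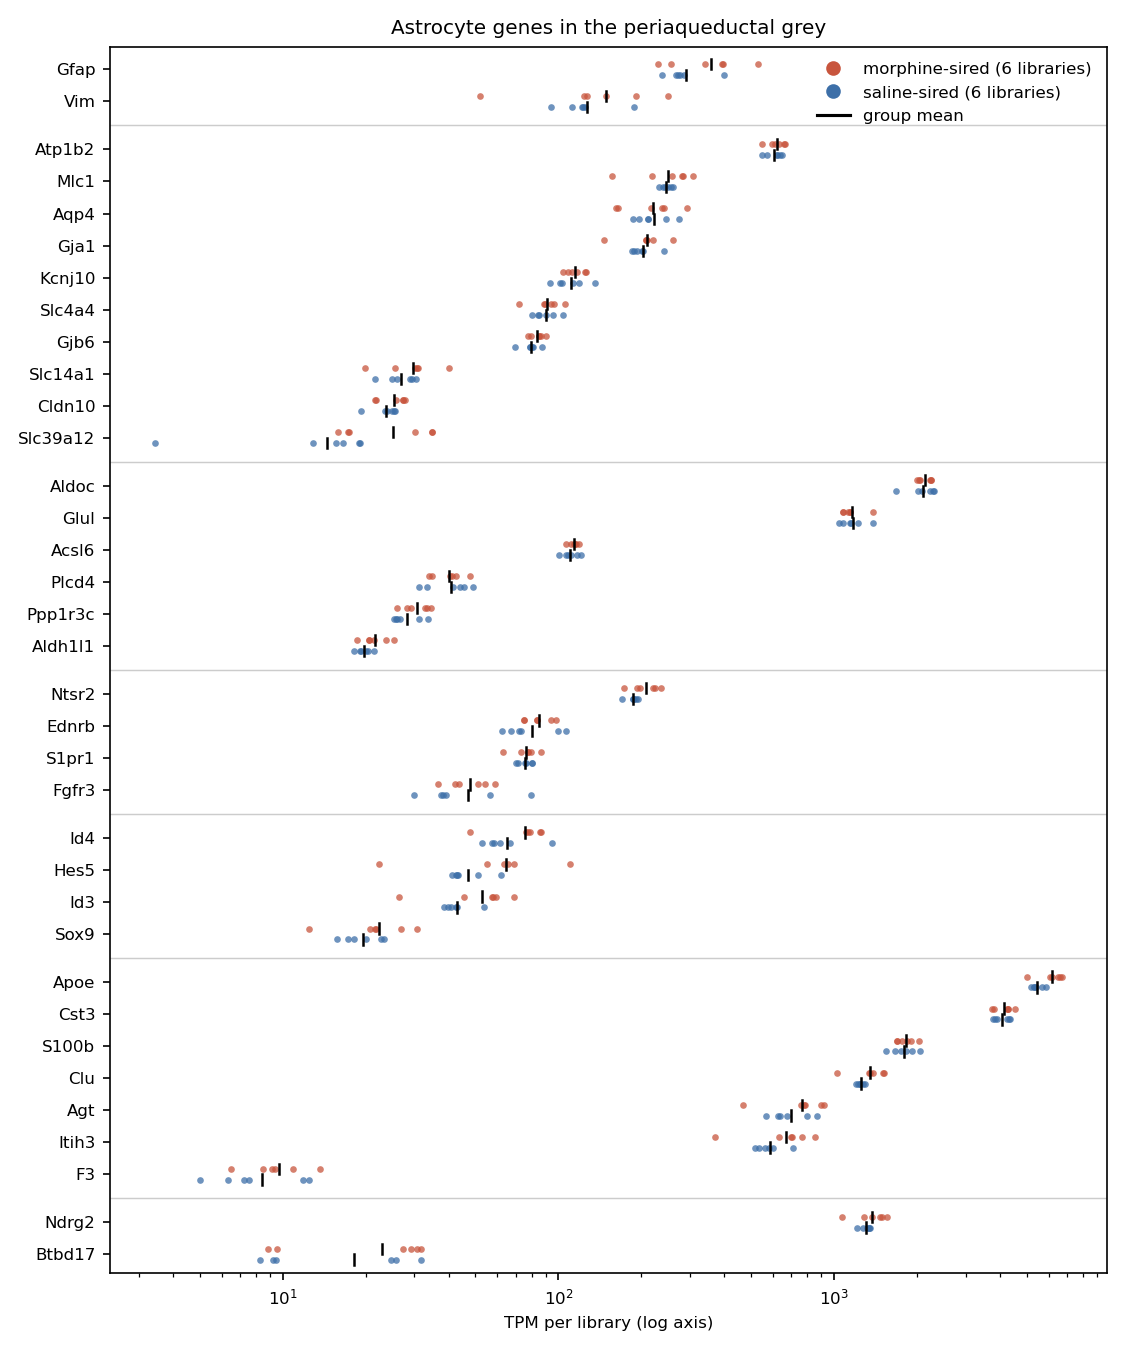
TPM on a log axis of each astrocyte gene in every library, with morphine-sired libraries (red) above saline-sired libraries (blue) in each row and a black line at each group's mean. Genes are grouped by role, and the groups overlap for each of the 35 genes.

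No astrocyte gene passed the test between morphine-sired and saline-sired rats (limma on log2(TPM + 1) with Benjamini-Hochberg adjustment over all genes tested), with an adjusted p of 0.9998 or higher for each of the 35. The same fit called 0 of 24540 genes (0%), and 0 were called by limma-voom on estimated reads. At an unadjusted p under 0.05, 3 members passed, namely Apoe, Slc39a12 and Ntsr2, all 3 with a higher level in morphine-sired rats, against 3.22% of all genes tested (1.5% higher and 1.72% lower). The groups overlapped for every member, against 0.0896% of all genes whose groups did not overlap.

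The small differences leaned one way. The mean of log2(TPM + 1) was higher in morphine-sired rats for 31 of 35 astrocyte genes (88.6%), against 49.2% of all genes tested and 49.9% of the 13791 genes that averaged 5 TPM or more. Counts below of genes with a higher or lower average also use this log2 mean. The median difference (morphine-sired minus saline-sired) was 0.10 on the log2 scale over the members, against -0.0022 over all genes tested. The members were measured in the same 12 libraries and are not independent of each other, so this count is a description. The 95% interval of the difference lay within 0.5 of 0 for 24 members and within 1 of 0 for 33, with Slc39a12 and Btbd17 as the exceptions to the wider bound.

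Leaving out libraries moved these values. Without morphine-sired 2, 13 of 35 members had an unadjusted p under 0.05, against 6% of all genes, 33 of 35 averaged higher in morphine-sired rats, and the median difference was 0.15, while the smallest adjusted p of a member was 0.688 (limma). Without saline-sired 2 and morphine-sired 2 together, 13 members also had an unadjusted p under 0.05, against 8.86% of all genes, and the median difference was 0.18. The median difference was 0.057 without morphine-sired 3, 0.059 without saline-sired 6, and 0.059 without saline-sired 3 and 4 and morphine-sired 3 and 4, where 26 of 35 members had a higher mean and none had an unadjusted p under 0.05.

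**Figure D2:**
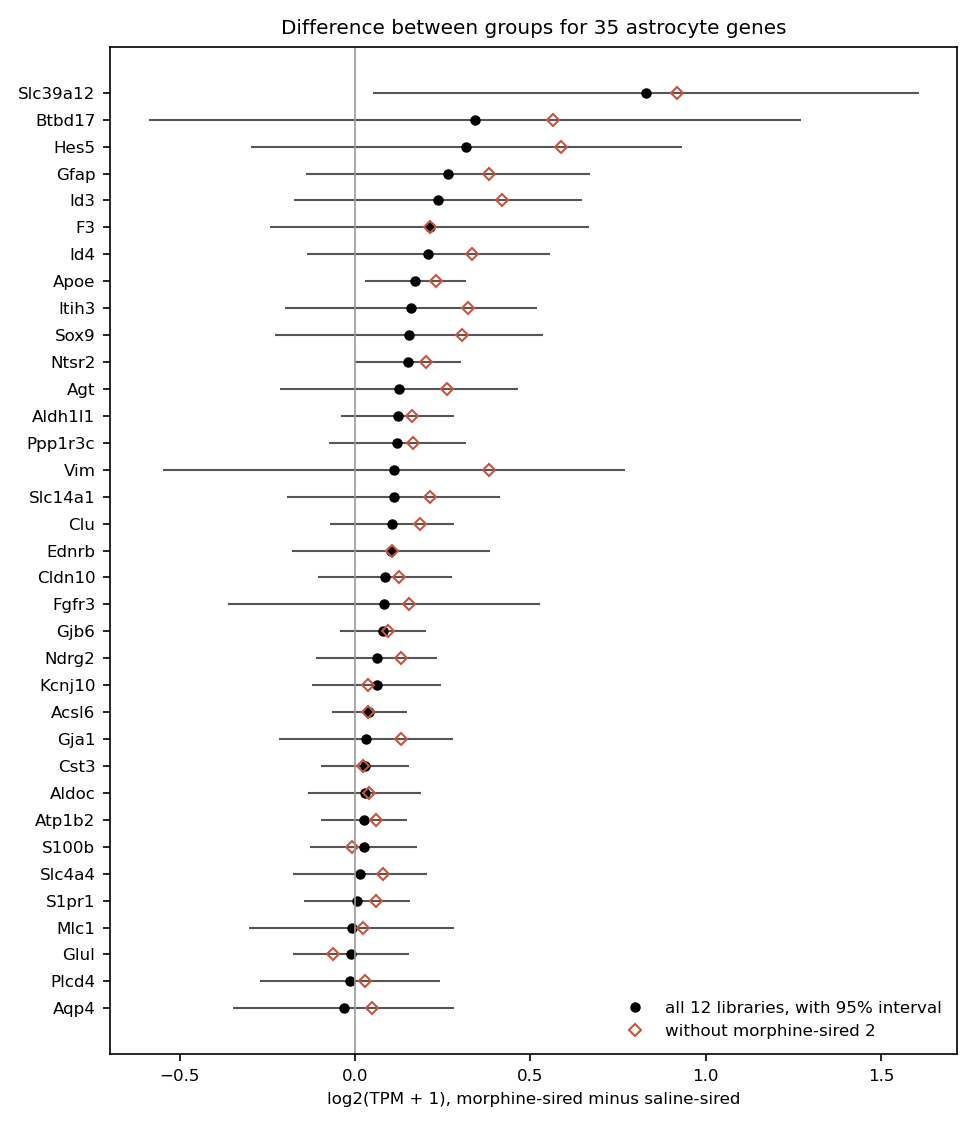
Group difference (morphine-sired minus saline-sired, log2 scale) of the 35 astrocyte genes over all 12 libraries (black, with its 95% interval from limma) and without morphine-sired 2 (open diamonds). The largest difference is that of Slc39a12 at 0.83, and the intervals of Slc39a12, Apoe and Ntsr2 exclude 0. Morphine-sired 2 was the lowest library for 16 of the 35 genes, so leaving it out raises most differences. Without morphine-sired 3, which is not drawn, the median difference was 0.057, against 0.10 over all 12 libraries and 0.15 without morphine-sired 2.

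The filament genes were Gfap and Vim. Gfap, the main astrocyte intermediate filament (Rnor_6.0 chromosome 10, 90990762 to 90999506, minus strand), had a lowest, median and highest value of 229.1, 367.4 and 529.9 TPM in morphine-sired rats, against 238.6, 273.7 and 397.2 TPM in saline-sired rats. Its highest library was morphine-sired 5 and its lowest was morphine-sired 2, so the morphine-sired range enclosed the saline-sired one. Gfap averaged 357.3 ± 108.9 TPM in morphine-sired and 289.4 ± 55.2 TPM in saline-sired rats (SD, n = 6 each). The log2 difference was 0.27 ± 0.19 (SE) with a limma adjusted p of 0.9998. The difference was 0.14 without morphine-sired 5 and 0.38 without morphine-sired 2. Vim, vimentin, which ependymal and endothelial cells also make, ran between 51.99 TPM in morphine-sired 2 and 250.3 TPM in morphine-sired 3, and its log2 difference of 0.11 ± 0.30 was -0.067 without morphine-sired 3 and 0.38 without morphine-sired 2.

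Of the 10 channel, transporter and junction genes, 8 averaged higher in morphine-sired rats, and their median difference was 0.047 on the log2 scale. Aqp4, the water channel of astrocyte endfeet (chromosome 18, 6765945 to 6782996, minus strand), had a lowest, median and highest value of 162.1, 227.8 and 291.8 TPM in morphine-sired rats, against 186.8, 212 and 274.9 TPM in saline-sired rats. The morphine-sired range enclosed the saline-sired one, with morphine-sired 2 and 5 lowest and morphine-sired 3 highest. The log2 difference of Aqp4 was -0.032 ± 0.15 (95% interval -0.35 to 0.28), and it was 0.049 without morphine-sired 2.

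Slc39a12, a zinc transporter (chromosome 17, 81455955 to 81541759, plus strand), had the largest difference of all members. Its lowest, median and highest values were 15.9, 23.84 and 34.87 TPM in morphine-sired rats, against 3.451, 16.06 and 19.07 TPM in saline-sired rats. Morphine-sired 4, 5 and 6 lay above all saline-sired libraries, morphine-sired 1, 2 and 3 lay among them, and saline-sired 4 was far below the rest. The log2 difference was 0.83 ± 0.36 (unadjusted p = 0.0382 and adjusted p = 0.9998 by limma), and it was 0.50 without saline-sired 4. The unadjusted p was under 0.05 in 8 of the 12 fits that leave out 1 library each.

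Gjb6, which encodes the gap junction protein connexin 30 (chromosome 15, 37400889 to 37437913, minus strand), had a lowest, median and highest value of 77.42, 84.74 and 90.53 TPM in morphine-sired rats, against 69.74, 79.67 and 87.48 TPM in saline-sired rats. The ranges overlapped over most of their length, and the log2 difference was 0.079 ± 0.057. Gja1, connexin 43, the other astrocyte gap junction gene, averaged 209.0 ± 36.8 TPM in morphine-sired and 202.3 ± 20.8 TPM in saline-sired rats, and its log2 difference was -0.035 without morphine-sired 3. The potassium channel gene Kcnj10 averaged 115.3 ± 8.91 TPM in morphine-sired and 110.9 ± 15.0 TPM in saline-sired rats. Atp1b2, a subunit of the sodium pump, averaged 618.6 ± 43.4 TPM in morphine-sired and 607.5 ± 39.1 TPM in saline-sired rats. Mlc1, a membrane protein of astrocyte endfeet, averaged 250.6 ± 55.3 TPM in morphine-sired and 246.6 ± 10.6 TPM in saline-sired rats, and the wider spread in morphine-sired rats came with a value of 156.3 TPM in morphine-sired 1. Its log2 difference was -0.0096, so it is counted as lower. The bicarbonate transporter gene Slc4a4, the urea transporter gene Slc14a1 and the tight junction gene Cldn10 had log2 differences of 0.014, 0.11 and 0.085, and that of Slc14a1 was 0.018 without morphine-sired 3 and that of Cldn10 was 0.028 without saline-sired 2.

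Among the 6 enzyme genes, 4 averaged higher in morphine-sired rats. Aldh1l1, the folate enzyme that is widely used as an astrocyte marker (chromosome 4, 123516788 to 123557501, minus strand), had a lowest, median and highest value of 18.58, 20.97 and 25.28 TPM in morphine-sired rats, against 18.15, 19.69 and 21.5 TPM in saline-sired rats. Morphine-sired 3 and 5 lay above all saline-sired libraries and the others lay among them. Its log2 difference was 0.12 ± 0.074, and it was 0.078 without morphine-sired 3. Glul, glutamine synthetase, which turns glutamate into glutamine, was nearly level at 1161 ± 115 TPM in morphine-sired and 1170 ± 123 TPM in saline-sired rats, with a 95% interval of the log2 difference from -0.18 to 0.16. Aldoc was at 2132 ± 118 TPM in morphine-sired and 2101 ± 238 TPM in saline-sired rats. The log2 difference was 0.04 for Acsl6, an acyl-CoA synthetase, 0.12 for Ppp1r3c, which directs a phosphatase to glycogen, and -0.014 for Plcd4, a phospholipase C.

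All 4 receptor genes averaged higher in morphine-sired rats, with log2 differences between 0.0066 and 0.15. Ntsr2, a receptor of the peptide neurotensin (chromosome 6, 41917132 to 41923780, plus strand), had a lowest, median and highest value of 173.6, 209.6 and 235.7 TPM in morphine-sired rats, against 170.8, 187.3 and 194.3 TPM in saline-sired rats. In 4 of 6 morphine-sired libraries it was above the highest saline-sired one. The log2 difference was 0.15 ± 0.070 (unadjusted p = 0.0491 and adjusted p = 0.9998 by limma), and the unadjusted p was under 0.05 in 3 of the 12 fits without 1 library. Ednrb, an endothelin receptor, S1pr1, a sphingosine phosphate receptor, and Fgfr3, a fibroblast growth factor receptor, had log2 differences of 0.10, 0.0066 and 0.083. Assembled transcripts of the Fgfr3 locus, which it shares with another symbol, are not in its total, and with their 59.8 TPM on average the log2 difference was 0.15.

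All 4 transcriptional regulators averaged higher in morphine-sired rats, and their median difference was 0.22, the largest of any role with more than 2 genes. Hes5, a repressor that Notch signalling switches on, averaged 64.3 ± 28.2 TPM in morphine-sired and 47.2 ± 8.04 TPM in saline-sired rats. Id3 and Id4, inhibitors of basic helix-loop-helix factors, averaged 52.7 ± 14.9 and 75.5 ± 14.2 TPM in morphine-sired rats, against 43.0 ± 5.45 and 65.2 ± 15.3 TPM in saline-sired rats. Sox9, a factor that astrocytes keep through life, averaged 22.39 ± 6.195 TPM in morphine-sired and 19.5 ± 3.02 TPM in saline-sired rats. Each of the 4 genes except Id4 had an SD in morphine-sired rats over that in saline-sired rats, and each was lowest of the 12 libraries in morphine-sired 2. Without that library the log2 differences of Hes5, Id3, Id4 and Sox9 were 0.59, 0.42, 0.33 and 0.30, with a limma adjusted p of 0.755 or higher for each. Without morphine-sired 5 they were 0.14 for Hes5 and 0.15 for Id3, and without morphine-sired 3 it was 0.057 for Sox9. Without saline-sired 5 it was 0.16 for Id4.

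All 7 genes of secreted and cell surface proteins averaged higher in morphine-sired rats, with a median difference of 0.13. Apoe (chromosome 1, 80612895 to 80617057, minus strand) had the smallest unadjusted p of all members. Its lowest, median and highest values were 5029, 6334 and 6695 TPM in morphine-sired rats, against 5196, 5368 and 5872 TPM in saline-sired rats. Each morphine-sired library except morphine-sired 2, which was lowest of all, lay above the highest saline-sired one. Apoe averaged 6181 ± 614 TPM in morphine-sired and 5466 ± 253 TPM in saline-sired rats (SD, n = 6 each). The log2 difference was 0.17 ± 0.066 (unadjusted p = 0.0227 and adjusted p = 0.9998 by limma). The difference was 0.23 without morphine-sired 2, and the unadjusted p was under 0.05 in 10 of the 12 fits without 1 library. Clu, which encodes the chaperone clusterin, averaged 1355 ± 181 TPM in morphine-sired and 1249 ± 33.4 TPM in saline-sired rats. Agt, angiotensinogen, averaged 768 ± 162 TPM in morphine-sired and 696 ± 115 TPM in saline-sired rats. Itih3, a protein that binds hyaluronan, averaged 670 ± 164 TPM in morphine-sired and 584 ± 68.8 TPM in saline-sired rats. Cst3, S100b and F3 had log2 differences of 0.028, 0.025 and 0.21. The remaining members, Ndrg2, of the NDRG family, and Btbd17, of the BTB domain family, had log2 differences of 0.062 and 0.34.

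The members differed in how steady they were between libraries. The within-group SD on the log2 scale was smallest for Acsl6 at 0.077, Gjb6 at 0.093, Atp1b2 at 0.099 and Cst3 at 0.10, and largest for Btbd17 at 0.83, Slc39a12 at 0.69, Vim at 0.59 and Hes5 at 0.55. For Acsl6 10% of the 10847 genes that averaged 10 TPM or more had a smaller SD, and for Hes5 94.1% did. The highest library was 10.1 times the lowest for Slc39a12, 4.93 times for Hes5 and 4.81 times for Vim, but 1.2 times for Acsl6 and 1.21 times for Cst3.

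Morphine-sired 2 was the lowest of the 12 libraries for 16 of 35 members, Gfap, Aqp4, Apoe, Vim, Sox9, Hes5, Id3, Id4, Clu, Agt and Itih3 among them, where it was the lowest for 20.4% of all genes tested. Morphine-sired 3 was the highest for 17 of 35, against 11.2% of all genes tested. The median deviation of a member from its mean over the libraries was -0.23 in morphine-sired 2, 0.23 in morphine-sired 3 and 0.14 in morphine-sired 5, and it lay between -0.16 and 0.010 in the 6 saline-sired libraries. Not every member followed this pattern. Glul, S100b and Kcnj10 were above their mean in morphine-sired 2, at 1386, 2041 and 125.9 TPM.

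Markers of ependymal cells, choroid plexus and oligodendrocytes also stood apart in these libraries. Of 12 listed ependymal genes, 11 were tested, all 11 higher on average in morphine-sired rats and none past the adjusted threshold, and their summed level ran between 53.12 and 416.5 TPM in morphine-sired rats, against 118.7 to 277.7 TPM in saline-sired rats. Foxj1, the defining factor of ciliated cells, was not found under that symbol and so was not tested, which says nothing about its level. The mean log2(TPM + 1) of the ependymal list was 1.99 in morphine-sired 2, 4.84 in morphine-sired 3 and 4.70 in morphine-sired 5, and in the other 9 libraries it ran between 3.33 and 4.35. The ependymal gene Ccdc153 was at 1.54 TPM in morphine-sired 2 and at 75.7 TPM in morphine-sired 3. Of the tested ependymal genes, only Rarres2 and Mia were higher in morphine-sired 2 than in morphine-sired 3. They were at 23.83 and 2.156 TPM in the former and at 18.49 and 1.979 TPM in the latter. Of 11 listed choroid plexus genes, all 11 were tested, all higher on average in morphine-sired rats and none past the adjusted threshold, and their summed level ran between 27.17 and 1834 TPM in morphine-sired rats, against 18.29 to 460.7 TPM in saline-sired rats. The choroid plexus list was highest in morphine-sired 2, with the thyroxine carrier Ttr at 1756 TPM there, most of that library's sum. Kl, Kcnj13, Slc4a5, Aqp1, F5 and Sostdc1 were also highest there. Folr1, Clic6 and Prlr were highest in morphine-sired 3, at 28.27, 14.51 and 3.881 TPM, and Otx2 in morphine-sired 5, at 8.708 TPM. Of 15 oligodendrocyte genes, 4 averaged higher in morphine-sired rats, and their summed level ran between 11090 and 22120 TPM in morphine-sired rats, against 13400 to 18160 TPM in saline-sired rats, with morphine-sired 2 highest.

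The other lists had no gene past the adjusted threshold either. Of 12 tested microglia genes, 10 averaged higher in the morphine-sired group, and 4 had an unadjusted p under 0.05, all 4 higher, against 3.22% of all genes. Their summed level ran between 450.9 and 551.3 TPM in morphine-sired rats, against 436.8 to 519.2 TPM in saline-sired rats. Of the 11 choroid plexus genes above, 3 had an unadjusted p under 0.05, namely Folr1, Prlr and Clic6, all 3 higher. All 5 tested blood genes averaged higher in the morphine-sired group, with a summed level of 716.6 to 2193 TPM in morphine-sired rats, against 614.2 to 1045 TPM in saline-sired rats. All 6 serotonergic genes averaged lower, with a median difference of -0.90 and a summed level of 63.79 to 605 TPM in morphine-sired rats, against 53.45 to 1248 TPM in saline-sired rats. The mean was higher in the morphine-sired group for 5 of 16 neuronal genes, 1 of 13 endothelial and mural genes, 4 of 5 oligodendrocyte precursor genes, 6 of 8 genes of meninges and fibroblasts and 3 of 4 cholinergic genes. An unadjusted p under 0.05 was reached by 2 of the 16 neuronal genes and 1 of the 13 endothelial and mural genes, each lower in the morphine-sired group. The part of these cell types in the levels and differences of the astrocyte genes was not tested.

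**Figure D3:**
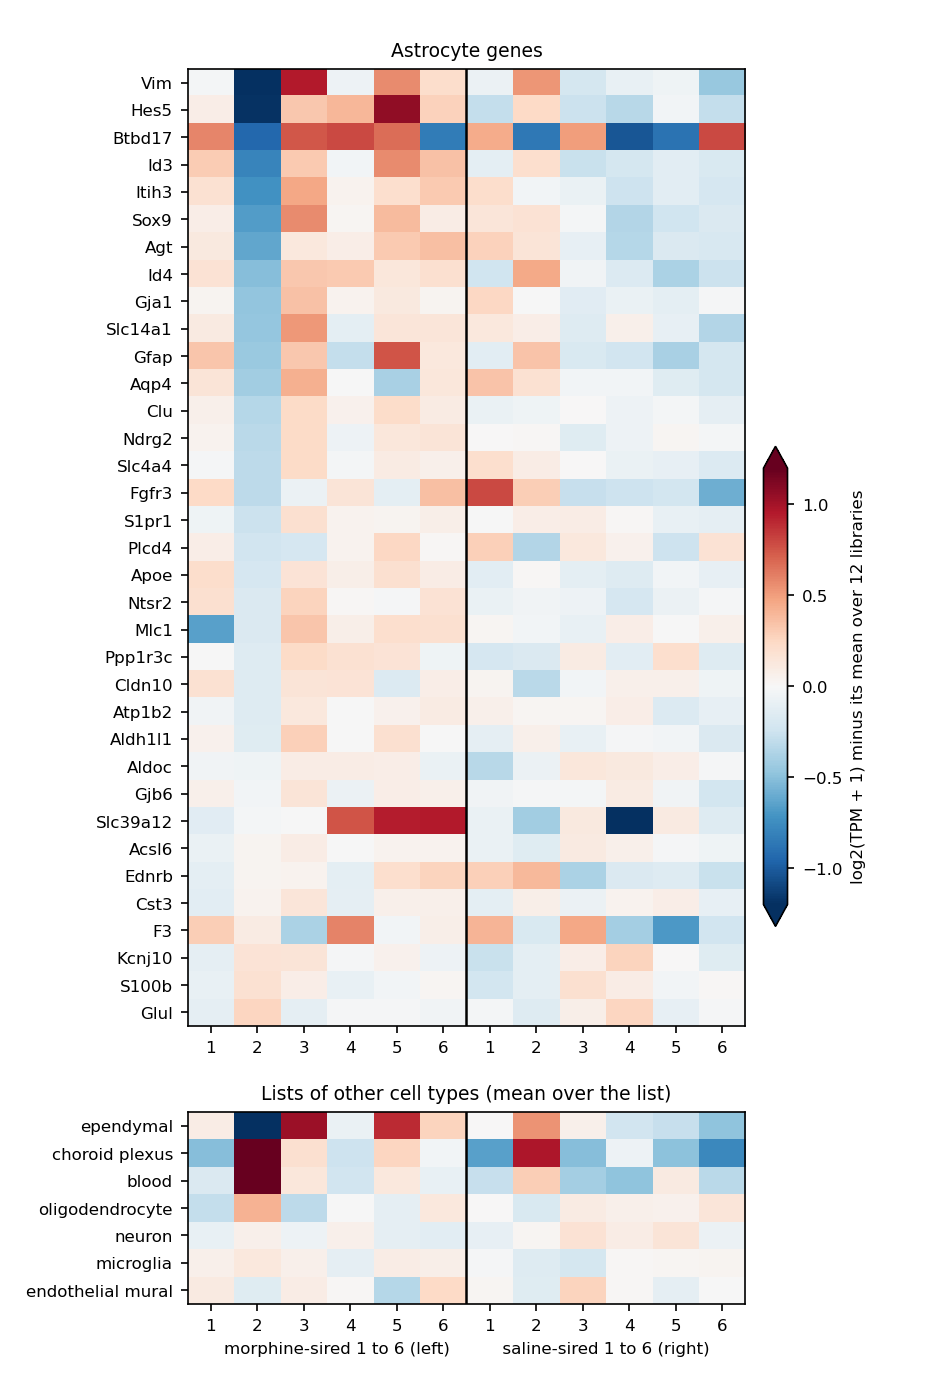
Deviation of log2(TPM + 1) from its mean over the 12 libraries, for each astrocyte gene (upper panel, ordered by the value in morphine-sired 2) and for the mean of lists of other cell types (lower panel), with the 6 morphine-sired libraries left of the 6 saline-sired ones. Most astrocyte genes and the ependymal list are low in morphine-sired 2 and high in morphine-sired 3.

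The members moved together only in part. Over the 12 libraries, with each group's mean subtracted, the 595 pairs of members had a median Pearson's r of 0.279, and 72.8% of the pairs were positive. Pairs of all 11938 genes that have a symbol and averaged 5 TPM or more had a median of 0.0307, with 53% positive. The genes outside the list with the pattern most like that of Gfap were Tnks1bp1, Zfp575, Lcat, Sstr2 and Mcfd2, with r between 0.919 and 0.956. For Aqp4 they were LOC100912181, Cenpv, Tvp23a, Zfp507 and Sike1, with r between 0.866 and 0.938. Of these 10 genes only Lcat is on the list of further astrocyte genes. These likenesses share libraries and depth and were picked as the highest among 11937 genes, so they are descriptions.

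Further astrocyte genes outside the 35 were fitted in the same way. Of 44 such genes, among them the glutamate transporters Slc1a2 and Slc1a3, 40 were tested, 24 of them higher and 16 lower on average in morphine-sired rats, none past the adjusted threshold, and the median difference was 0.032. That median was -0.0053 without morphine-sired 3 and 0.076 without morphine-sired 2. The 4 with the smallest unadjusted p were Elovl2, Sparcl1, Tril and Slc6a11. Elovl2, an elongase of long fatty acids, averaged 19.9 ± 0.867 TPM in morphine-sired and 22.3 ± 1.01 TPM in saline-sired rats, a log2 difference of -0.16 ± 0.051 (unadjusted p = 0.00883 and adjusted p = 0.9998 by limma) that was -0.053 with annotated transcripts alone. Sparcl1, a secreted synapse-forming protein, averaged 2216 ± 139 TPM in morphine-sired and 1966 ± 152 TPM in saline-sired rats, a log2 difference of 0.17 ± 0.059 (unadjusted p = 0.0111 and adjusted p = 0.9998 by limma). Tril, a co-receptor of Toll-like receptors, and Slc6a11, a GABA transporter, had log2 differences of 0.074 and 0.15, and that of Slc6a11 was 0.24 without saline-sired 2 and morphine-sired 2 and 0.074 without saline-sired 3 and 4 and morphine-sired 3 and 4.

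Genes known to rise in reactive astrocytes were fitted too. Of 36 such genes, 30 were tested, 17 of them higher and 13 lower on average in morphine-sired rats, none past the adjusted threshold, and the median difference was 0.058, which was 0.0044 without morphine-sired 5. Their summed level ran between 224.9 and 307.3 TPM in morphine-sired rats, against 210.5 to 277 TPM in saline-sired rats. Steap4, Cxcl10, Osmr and Cd109 averaged under 1 TPM, and Serpina3n and Ptx3 were among the 6 that did not pass the minimum for testing. The 4 with the smallest unadjusted p were Fbln5, Stat3, Cd14 and S100a6, with log2 differences of 0.28, 0.14, 0.22 and 0.20. With annotated transcripts alone Stat3 and Cd14 were at 0.25 and 0.45, and without saline-sired 2 and morphine-sired 2 Stat3 and S100a6 were at 0.070 and 0.091. Fbln5, a protein of elastic fibres, averaged 5.80 ± 0.976 TPM in morphine-sired and 4.60 ± 0.924 TPM in saline-sired rats. It alone of the 30 had an unadjusted p under 0.05, at 0.0439 with an adjusted p of 0.9998 (limma). Of all genes tested, 3.22% had an unadjusted p under 0.05, a share near that of this list.

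At the level of transcripts, the members had 101 transcripts that averaged 0.5 TPM or more, of which 46 were assembled in the series and are not annotated. None passed the limma test with adjustment over all 50419 transcripts, of which 1 was called (0.00198%). The 2 groups overlapped for all 101, against 0.105% of all 50419 transcripts whose groups did not overlap. At an unadjusted p under 0.05 there were 4 of the 101, a share near the 3.77% of all transcripts. They belonged to Apoe, Gjb6, Slc39a12 and Ntsr2. The main Apoe transcript, ENSRNOT00000041891, averaged 4035 ± 416 TPM in morphine-sired and 3441 ± 50.9 TPM in saline-sired rats, a log2 difference of 0.22 ± 0.062. It was at 3998 to 4314 TPM in 5 morphine-sired libraries and at 3214 TPM in morphine-sired 2, against 3364 to 3506 TPM in saline-sired rats. Its adjusted p was 0.99997 over all libraries and 0.00148 without morphine-sired 2, where the log2 difference was 0.29 ± 0.020 (limma). Of the 12 fits without 1 library it was called in that one alone. The second Apoe transcript, assembled in the series, had a log2 difference of 0.091. The assembled Gjb6 transcript MSTRG.9037.1 averaged 39.2 ± 2.79 TPM in morphine-sired and 31.9 ± 5.25 TPM in saline-sired rats, while both main annotated Gjb6 transcripts had log2 differences below 0, of -0.016 and -0.14.

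Aqp4 had transcripts from 3 start sites in the files. The 2 that gave most of its TPM lay 916 bases apart, the same distance as between the RefSeq windows printed above. The third, 239 bases further upstream, gave 1 transcript at 1.36% of Aqp4 TPM. Of the other two, the upstream one gave the main transcript, at 67.8% of Aqp4 TPM. The downstream one, with 2 transcripts, gave 32.8% ± 12.3 of Aqp4 TPM in morphine-sired and 29.4% ± 6.57 in saline-sired rats (SD, n = 6 each), a difference of 3.36 percentage points that was smaller than the spread (exact permutation test, two-sided, p = 0.680). The lowest, median and highest values were 22.5%, 30.8% and 56.6% in morphine-sired rats, against 21.1%, 30.1% and 36.6% in saline-sired rats. Morphine-sired 5 stood alone at the top, with 63.18 TPM of the upstream transcript against 120.9 to 195.2 TPM in the other 11 libraries.

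The division of a gene's TPM among its transcripts was steady for some members and not for others. Of 7227 genes that averaged 5 TPM or more and had a second transcript of at least 10% on average, 18 were astrocyte genes. None passed the limma test of the major transcript's share between groups at an adjusted p under 0.05, and 0 of all 7227 (0%) did. No member had an unadjusted p under 0.05, against 4.29% of the 7227 genes. The smallest was that of Gjb6, whose assembled transcript held 46.9% ± 4.21 in morphine-sired and 40.2% ± 5.61 in saline-sired rats (95% interval of the difference -0.55 to 13.99 percentage points). For Mlc1 the share of the major transcript ran between 8.07% and 86.6% over the libraries. One of its transcripts was at 0 in 5 libraries, 2 of them morphine-sired and 3 saline-sired, while the summed level of the gene was 231.2 to 260.2 TPM in all saline-sired libraries. These Mlc1 transcripts overlap almost whole, and reads are divided between overlapping transcripts by estimation, so such single values are uncertain.

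**Figure D4:**
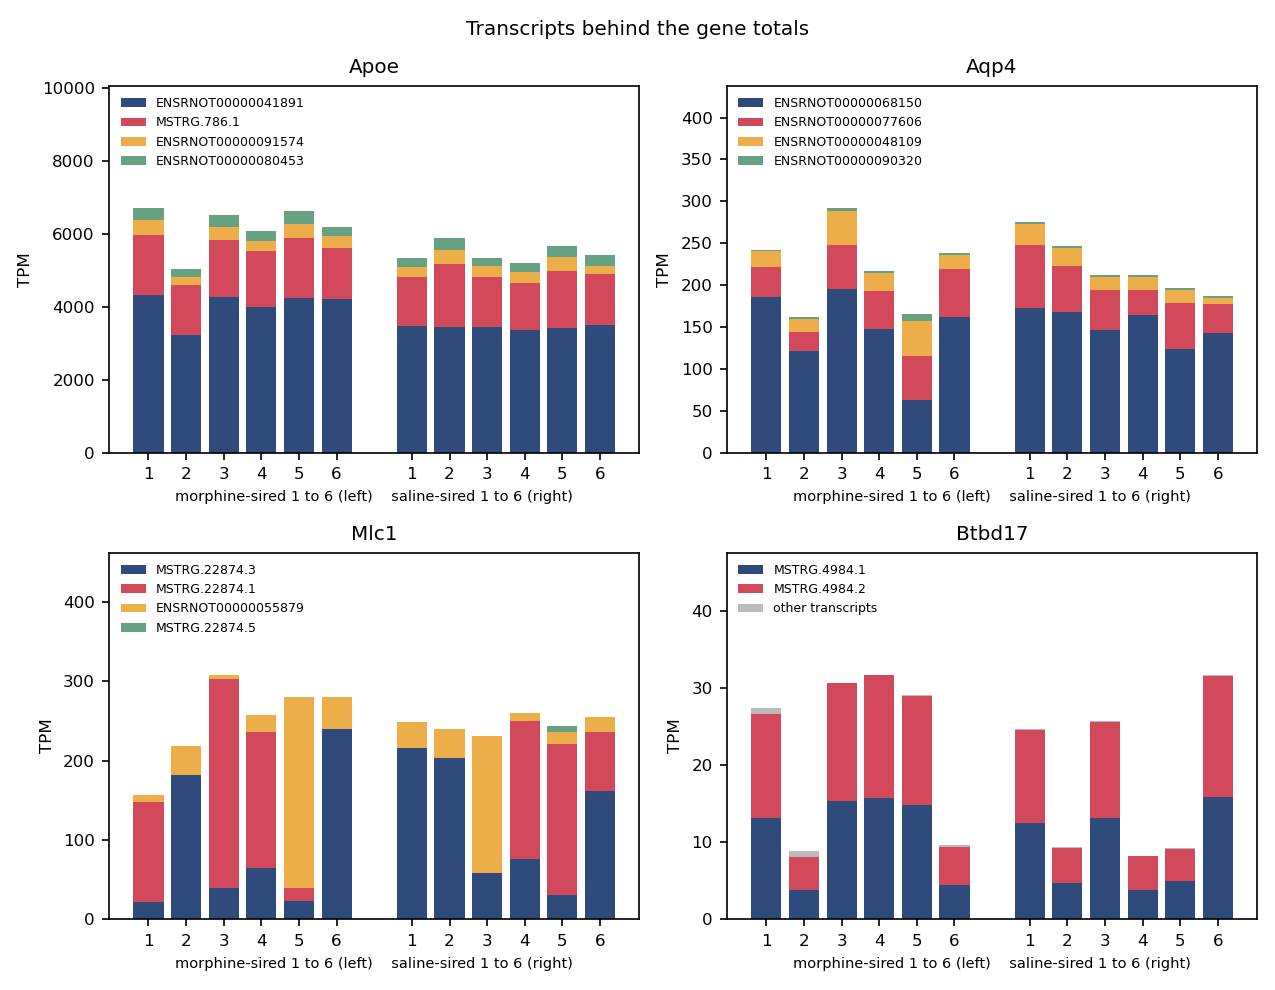
TPM of the transcripts of Apoe, Aqp4, Mlc1 and Btbd17 stacked for each library, with the 6 morphine-sired libraries left of the 6 saline-sired ones. The Aqp4 bar of morphine-sired 5 holds 63.18 TPM of the upstream transcript, the Mlc1 bars change their make-up between libraries, and the Btbd17 bars fall into a lower and a higher set.

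Btbd17 fell into 2 sets of libraries that crossed the groups. It was at 8.27 to 9.57 TPM in 5 libraries, 2 morphine-sired and 3 saline-sired, and at 24.7 to 31.8 TPM in the other 7, 4 of them morphine-sired and 3 saline-sired. Both of its assembled transcripts followed this split. Its locus overlaps Kif19 on the opposite strand and 99% of its TPM came from assembled transcripts. Assembled transcripts also held 97.8% of the TPM of Slc4a4, 93.4% of Plcd4, 80.5% of Itih3, 78.7% of Mlc1 and 76.1% of Ednrb. With annotated transcripts alone, the log2 differences of Slc4a4, Gjb6, Ednrb and Acsl6 were -0.12, -0.083, -0.059 and -0.022, and 26 of 34 members averaged higher in morphine-sired rats. Of the 35 loci, 8 overlap a gene with a symbol on the opposite strand, Agt, Ntsr2, S100b and Gjb6 among them, and the sources used here do not state whether reads carry strand.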

How the data were processed

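PolyA RNA libraries of periaqueductal grey, 6 morphine-sired and 6 saline-sired, were grouped by the treatment label. Extraction used Trizol and a Qiagen kit, and library preparation used NEBNext Ultra, per the labels' protocols. Reads were handled with HISAT2 2.2.0, Trimmomatic 0.39, SAMtools 1.11, FastQC 0.11.9, DESeq2 1.28.1 and StringTie 2.1.2 on build Rnor_6.0, per the submitters' processing notes, while the file headers name StringTie 1.3.6 in its estimation mode on a merged annotation. The authors deposited coverage (signal per base), FPKM and TPM of 76232 transcripts per library, of which 35169 were assembled, and a log2 table that matched log2(FPKM + 1) of the 41063 annotated transcripts to within 4.9e-08. TPM and this log2 scale are relative to each library's total, so strong changes of abundant transcripts shift the rest. Depth, from the ratio of coverage to FPKM, was 4.39 to 6.03 gigabases.

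TPM was summed per gene, with the assembled transcripts of a locus that has 1 symbol, and genes averaging 0.5 TPM or more were fitted with limma 3.58.1 in R 4.3.3 on log2(TPM + 1), a scale that shrinks the differences of low genes (two-sided, Benjamini-Hochberg over all genes tested, threshold 0.05). Transcripts were fitted likewise, and the percent of the major transcript without a trend. The fits were tested on simulated data with independent normal noise for each gene. That test does not cover shifts shared by many genes of a library, as seen here in morphine-sired 2. Alternatives were the pseudocount, filters, scalings, limma-voom on reads estimated from coverage with an inferred read length of 135 bases, annotated transcripts alone and left-out libraries. For Fgfr3 an alternative with all transcripts of its locus was chosen after seeing the data. The members, lists and tests were chosen with earlier results of these data known. Values are given for each library group for Gfap, Aqp4, the highest member and the 6 members with the smallest unadjusted p, and from 2 further lists for the 4 genes with the smallest p each. Beside Gfap and Aqp4 the 5 genes with the highest r are named.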

Additional observations from a re-analysis of the deposited data

Results flagged for a closer look

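Within each group of 6, a library was picked out where its gap to the nearest other library, as a share of the group's range on the log2 scale, was above Dixon's 95% critical value, for the astrocyte genes and for the mean level of each cell type list. Of 98 groups examined 17 were picked out, where chance gives about 4.9, and the members share libraries.

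Morphine-sired 2 was low for Agt at 466 TPM (the other 5 libraries at 761 to 922), Id4 at 47.9 TPM (76.0 to 86.1), Apoe at 5029 TPM (6084 to 6695), Clu at 1021 TPM (1343 to 1517) and Itih3 at 371 TPM (631 to 849), and high for Glul at 1386 TPM (1077 to 1147). Its mean log2(TPM + 1) was low for the astrocyte genes at 6.95 (7.32 to 7.49), and high for the choroid plexus list at 3.73 (1.36 to 2.12) and for the blood list at 7.37 (5.83 to 6.19).

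Saline-sired 2 was high for Gfap at 397 TPM (239 to 287) and Id3 at 53.6 TPM (38.3 to 42.9), and low for Cldn10 at 19.3 TPM (23.5 to 25.5). Saline-sired 4 was low for Slc39a12 at 3.45 TPM (12.9 to 19.1) and Ntsr2 at 171 TPM (186 to 194), and saline-sired 1 was high for Gja1 at 242 TPM (186 to 203). Of the lists, morphine-sired 4 was low for microglia at 4.93 (5.10 to 5.17) and morphine-sired 1 for cholinergic neurons at 1.15 (3.36 to 4.55). Saline-sired 1 and 6 were lower still for cholinergic neurons, at 0.82 and 0.74. The rule looks for a single library apart from its group, so it did not pick them out. The part of other cell types in these values was not tested.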

How the results depend on the processing

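No paired analysis was possible because the labels give no replicate numbers that the groups share, and only 2 of the 6 consecutive number pairs cross the groups, with no label that says what a pair means. No astrocyte gene was called under any alternative. Of 945 differences recomputed for the members and the 8 further named genes, 55 changed sign, in 17 members. With quantile normalization Aldoc was at -0.015 and 1 member had an unadjusted p under 0.05. With annotated transcripts alone Acsl6, Ednrb, Gjb6 and Slc4a4 were at -0.022, -0.059, -0.083 and -0.12. Without saline-sired 1 and 6 and morphine-sired 1, Aldoc, S1pr1, Plcd4 and Mlc1 were at -0.040, -0.0087, 0.080 and 0.14, 1 member had an unadjusted p under 0.05 and 1 gene was called. Without saline-sired 2 and morphine-sired 2, Aqp4, Mlc1 and S100b were at 0.083, 0.016 and -0.029, and 13 members had an unadjusted p under 0.05. Without saline-sired 3 and 4 and morphine-sired 3 and 4, Btbd17, Fgfr3, Gja1, S1pr1, Slc4a4, Sox9 and Vim were at -0.0024, -0.028, -0.10, -0.025, -0.051, -0.010 and -0.13, Glul and Plcd4 were at 0.097 and 0.065, 0 members had an unadjusted p under 0.05 and 1 gene was called. By the deposited log2 values no transcript (0) was called. Leaving out 1 library at a time, the difference ranged over -0.12 to 0.049 for Aqp4, -0.035 to 0.057 for Aldoc, -0.017 to 0.065 for S100b, -0.035 to 0.13 for Gja1, -0.063 to 0.039 for Glul, -0.026 to 0.25 for Fgfr3, -0.0039 to 0.059 for Atp1b2, -0.031 to 0.079 for Slc4a4, -0.077 to 0.12 for Mlc1, -0.067 to 0.38 for Vim, -0.032 to 0.059 for S1pr1 and -0.086 to 0.042 for Plcd4. Without a change of sign it ranged over 0.018 to 0.21 for Slc14a1, 0.0016 to 0.056 for Cst3, 0.015 to 0.12 for Kcnj10, 0.024 to 0.13 for Ndrg2, 0.015 to 0.067 for Acsl6, 0.057 to 0.30 for Sox9, 0.038 to 0.19 for Ednrb, 0.14 to 0.59 for Hes5, 0.15 to 0.42 for Id3, 0.16 to 0.33 for Id4, 0.066 to 0.26 for Agt, 0.082 to 0.32 for Itih3, 0.071 to 0.19 for Clu, 0.096 to 0.33 for F3, 0.17 to 0.56 for Btbd17, 0.028 to 0.13 for Cldn10 and 0.043 to 0.11 for Gjb6. In the same fits 1 to 13 members had an unadjusted p under 0.05, 0 to 1 genes, 0 to 1 member transcripts, 0 to 2 transcripts in all and 0 to 2 major transcript shares were called. The cause of these changes was not tested, nor was the part of depth, which limits the precision of low genes most.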
